A study of Mus musculus with 9 samples.

Results

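The AP-1 and Atf transcription factors measured here were 10 genes of the basic leucine zipper class: Atf3, Maff, Fosl1, Fos, Jun, Batf3, Fosl2, Fosb, Junb and Jund. They were taken by name, as the non-control probes whose RefSeq accession mapped to 1 of these genes. This gave 11 of 55681 probes on the array, 1 for each gene and 2 for Fosl2, and after the brightest probe was taken for each gene 10 of 30837 items tested. Each of the 11 probes exceeded background clearly on each of the 9 arrays. The samples were brains of adult male C57/BL6 mice aged 50 to 53 days, with no brain region given in the labels. Mice of the VEGF group underwent 90 min of middle cerebral artery occlusion (MCAO), then 3 h after reperfusion an injection of rhVEGF-A165, a recombinant human vascular endothelial growth factor, in the right lateral ventricle (1 µl at 10 µg/ml). Mice of the MCAO group underwent that occlusion too, and their injection was the vehicle, phosphate-buffered saline (1 µl). Mice of the sham group had a sham operation, and the labels name no injection for them. Brains were collected 24 h after reperfusion, 21 h after injection, and each group had 3 arrays from separate mice.

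AP-1 is a dimer of basic leucine zipper proteins. A Fos family protein (Fos, Fosb, Fosl1, Fosl2) pairs with a Jun family protein (Jun, Junb, Jund), and the dimer binds the TPA response element or the related cyclic AMP response element in promoters and enhancers. Most of these genes are immediate early genes, transcribed within minutes of synaptic activity, growth factor signals or stress through mitogen-activated protein kinases and serum response factor. Atf3 is a stress-induced member of the ATF and CREB family and is widely used as a marker of injured neurons. Batf3 pairs with Jun proteins and is known for its role in conventional dendritic cells. Maff is a small Maf protein without a transactivation domain that pairs with CNC factors such as Nfe2l2 and Bach1.

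Promoter windows of Atf3, Fos, Jun and Maff are shown because they include the members with the largest differences from sham (Atf3 and Maff) and because each holds letters of the kind of site that AP-1, ATF and CREB proteins bind. Each is the 150 bases before the annotated start, from RefSeq in build GRCm38.p6, written 5′ to 3′ on the gene's strand. Capitals mark letters that matched TGACGT on either strand or TGACATCA on either strand.
Atf3 (chr1:191183334-191183483, strand minus): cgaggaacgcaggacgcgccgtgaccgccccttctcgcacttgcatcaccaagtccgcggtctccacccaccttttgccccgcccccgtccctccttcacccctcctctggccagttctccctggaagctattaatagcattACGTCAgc
Fos (chr12:85473740-85473889, strand plus): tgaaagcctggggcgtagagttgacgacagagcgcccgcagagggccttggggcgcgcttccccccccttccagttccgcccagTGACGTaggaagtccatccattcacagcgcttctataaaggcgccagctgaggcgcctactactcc
Jun (chr4:95052223-95052372, strand minus): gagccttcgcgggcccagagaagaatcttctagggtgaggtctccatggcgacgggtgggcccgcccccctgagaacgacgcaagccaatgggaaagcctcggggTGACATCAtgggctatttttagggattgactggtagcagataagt
Maff (chr15:79347370-79347519, strand plus): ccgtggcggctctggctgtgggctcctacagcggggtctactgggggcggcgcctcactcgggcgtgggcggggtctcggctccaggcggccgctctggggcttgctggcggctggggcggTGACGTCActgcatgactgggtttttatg
In Atf3 the match lay at -8 to -3, on the opposite strand, and in Fos it lay at -66 to -61. In Jun the TGACATCA match lay at -45 to -38. In the second of 3 annotated Maff starts, a pair of overlapping TGACGT matches, 1 on each strand, spanned -29 to -22. The RefSeq table held 11 promoters, each 250 bases before to 50 after a start, for 9 of the 10 genes. Fosl1 was not among them. TGACGT was found in 3 of these 11 promoters and in 7.51% of all 32851 promoters of that length. TGACATCA was found in 2 of 11, those of Jun and of the third Maff start, and in 3.62% of all. TGANTCA, the core of the TPA response element, was found in 0 of 11 and in 7.81% of all, and the serum response element (CArG box) in 0 of 11 and in 1.63% of all. Sites more than 250 bases before a start lay outside the search, so a count of 0 does not mean that a gene lacks the element. The motifs were chosen after the sequences had been seen, and a match is a description of the letters in the window.

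Levels are given as log2 of the processed signal minus the array's 75th percentile, so that 0 is the level of a probe at that percentile, and a difference of 1 is a doubling. The 3 sham arrays shared 1 slide and the 6 ischaemic arrays a second one, so slide and ischaemia cannot be told apart, whereas VEGF and MCAO shared a slide. All occluded mice also had an injection, and the labels name none for sham. Occlusion, injection and slide thus cannot be told apart in either comparison with sham. VEGF array 1 and MCAO array 1 stood apart from the other 4 ischaemic arrays: on the first principal component over all items (57.0% of the variance) they lay at 141 and 130, against -8.17 to 15.9 for those 4 and -104 to -90.1 for sham. MCAO array 1 was also scanned on another day than the other 8, and its signal had not been divided by the spatial trend factor. Results that rest on this pair are given with and without it. The tissue label was checked with 10 neuron markers, all of them well above background on every sham array. RNA came from bulk tissue, where fewer cells of a type and less RNA per cell cannot be told apart.

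Atf3, Maff and Fosl1 were much higher in the ischaemic brains than in sham brains, with or without VEGF, and were the members that passed the test in both comparisons. Atf3 was 74.6-fold higher in VEGF and 126-fold higher in MCAO than in sham. Maff was 46.0-fold higher in VEGF and 50.3-fold higher in MCAO, and Fosl1 21.3-fold and 26.1-fold. The other 7 members did not pass, with differences between 0.04 and 1.86 log2 units in MCAO versus sham. In MCAO versus sham 3 of 10 members were called higher, against 2.28% of all items called higher and 2.81% called in either direction. In VEGF versus sham the same 3 members were called, against 2.07% called higher and 2.43% in either direction. The median difference of the 10 members was 1.09 in VEGF versus sham and 1.15 in MCAO versus sham, where the medians of all items were -0.12 and -0.04, and all 10 members lay above 0 in both. The comparisons share the sham arrays. Members were chosen with earlier results of these data known, so setting their counts and medians against all items is a description and not a test.

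Atf3 stood at 4.23, 1.70 and 1.31 on the VEGF arrays, at 4.02, 3.15 and 2.36 on the MCAO arrays and at -3.91, -3.72 and -3.80 on the sham arrays. In processed signal, before scaling, these were 13600, 5040 and 3270 in VEGF, 12900, 15700 and 8770 in MCAO, and 83.1, 102 and 96.5 in sham. Every ischaemic array lay far above every sham array, and the sham arrays lay close together. The log2 difference was 6.22 ± 0.73 in VEGF versus sham (SE, n = 3 arrays per group, limma adjusted p = 0.00499) and 6.98 ± 0.73 in MCAO versus sham (limma adjusted p = 0.00261).

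Maff stood at 3.03, 0.65 and 0.56 in VEGF, at 2.24, 1.09 and 1.31 in MCAO and at -4.69, -3.88 and -3.76 in sham. Its groups also did not overlap with sham, and array 1 was the highest of its group in VEGF and in MCAO on this scale. The difference was 5.52 ± 0.65 in VEGF versus sham (limma adjusted p = 0.0053) and 5.65 ± 0.65 in MCAO versus sham (limma adjusted p = 0.00444).

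Fosl1 encodes Fra-1, a Fos family protein that lacks the C-terminal transactivation domain of Fos. It stood at 1.98, -0.74 and -0.97 in VEGF, at 1.67, 0.10 and -0.61 in MCAO and at -4.12, -4.44 and -4.40 in sham. All 6 ischaemic arrays lay above all sham arrays, with a spread of 1.64 (SD) in VEGF and 1.17 in MCAO against 0.18 in sham. The difference was 4.41 ± 0.82 in VEGF versus sham (limma adjusted p = 0.0305) and 4.71 ± 0.82 in MCAO versus sham (limma adjusted p = 0.0226). Of the 3 members called it was the one whose call was lost when an array was left out: without any single sham array the adjusted p lay between 0.0906 and 0.131 over both comparisons, and without MCAO array 2 it was 0.0575 in MCAO versus sham and 0.0529 in VEGF versus sham.

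**Figure D1:**
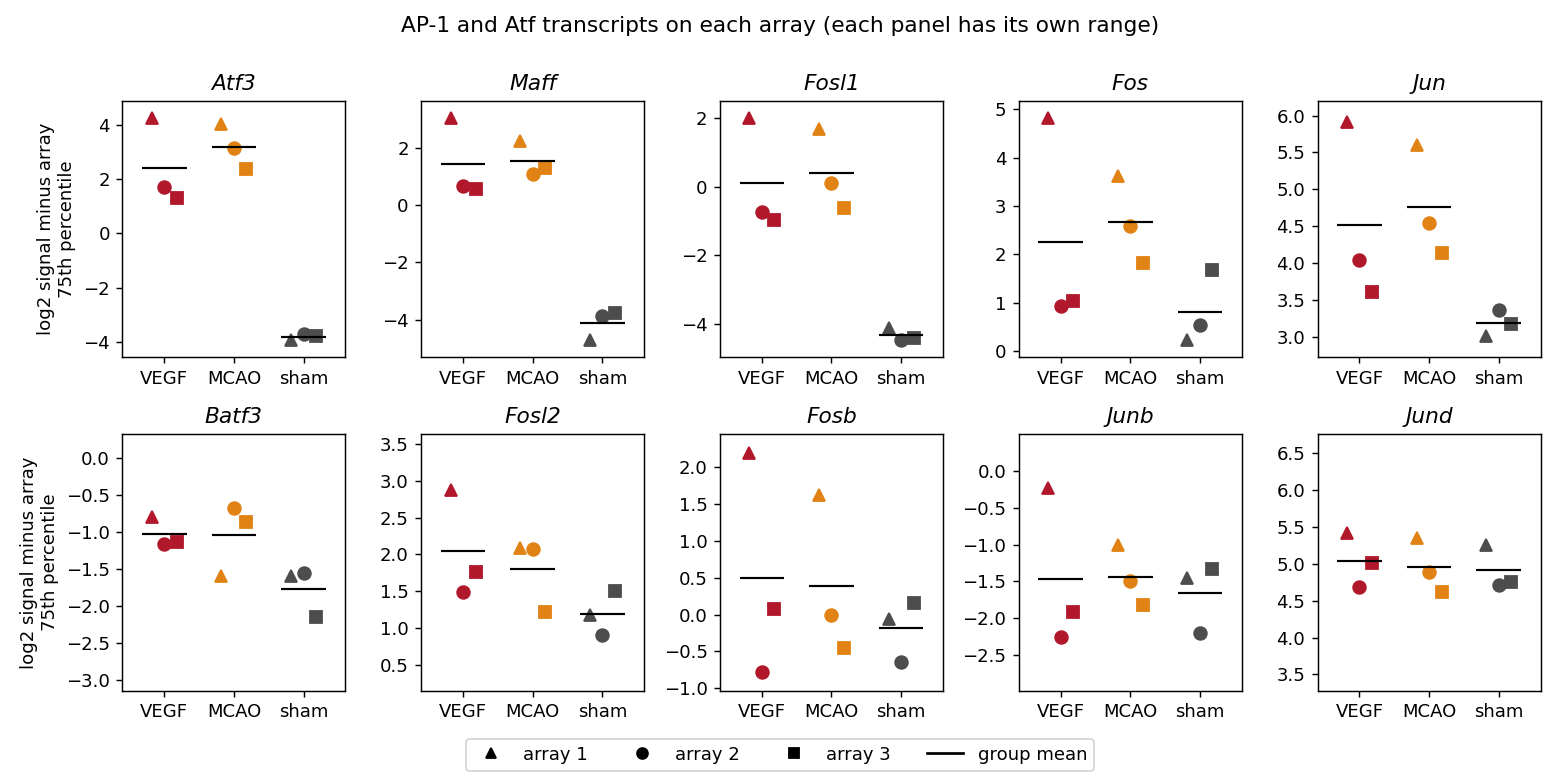
Level of each of the 10 members on each of the 9 arrays, as log2 signal minus the array's 75th percentile, with VEGF, MCAO and sham from left to right and a line at the group mean. Atf3, Maff and Fosl1 show ischaemic arrays far above sham, and the triangles (array 1) are the top points of VEGF in all 10 panels and of MCAO in all but Batf3 on this scale, an order that changed for some members in unscaled signal.

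Among the Fos family, Fos, the prototype immediate early gene, stood at 4.81, 0.93 and 1.03 in VEGF, at 3.62, 2.58 and 1.82 in MCAO and at 0.24, 0.53 and 1.67 in sham. All MCAO arrays were above all sham arrays, the highest sham array at 1.67 lying just under the lowest MCAO array at 1.82, whereas VEGF arrays 2 and 3 lay within the sham range. Neither difference passed: 1.44 ± 1.01 in VEGF versus sham (limma adjusted p = 0.382) and 1.86 ± 1.01 in MCAO versus sham (limma adjusted p = 0.312). The Fos probe had 10 spots on each array. Without spots flagged as outliers, their spread was 0.774% to 6.07% (coefficient of variation), far below the spread between arrays. The lowest value was that of MCAO array 1, where 3 of the 10 spots were flagged and left out.

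Fosb, a Fos relative whose splice form ΔFosB accumulates in neurons, stood at 2.19, -0.77 and 0.07 in VEGF, at 1.61, -0.01 and -0.45 in MCAO and at -0.06, -0.65 and 0.16 in sham. Only array 1 of VEGF and of MCAO lay above the sham range. The difference was 0.68 ± 0.78 in VEGF versus sham and 0.57 ± 0.78 in MCAO versus sham, and neither passed (limma adjusted p = 0.590 and 0.686).

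Fosl2, which encodes Fra-2, stood on its brighter probe at 2.88, 1.49 and 1.77 in VEGF, at 2.09, 2.08 and 1.22 in MCAO and at 1.17, 0.91 and 1.50 in sham. The groups overlapped, and the differences of 0.85 ± 0.40 in VEGF versus sham and 0.60 ± 0.40 in MCAO versus sham did not pass (limma adjusted p = 0.236 and 0.398). Its dimmer probe gave 0.64 ± 0.61 and 0.66 ± 0.61 for these comparisons. In VEGF versus MCAO the probes differed in sign, 0.25 ± 0.40 on the brighter and -0.02 ± 0.61 on the dimmer.

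Jun, the member of the Jun family that c-Jun N-terminal kinases activate, stood at 5.91, 4.04 and 3.61 in VEGF, at 5.61, 4.54 and 4.14 in MCAO and at 3.01, 3.36 and 3.17 in sham. No ischaemic array overlapped with sham. The difference was 1.34 ± 0.59 in VEGF versus sham (limma adjusted p = 0.218) and 1.58 ± 0.59 in MCAO versus sham (limma adjusted p = 0.184), so Jun did not pass in either. Groups that did not overlap, with the ischaemic group higher, were found for 18.2% of all items in VEGF versus sham and for 19.6% in MCAO versus sham. In VEGF versus sham 5 members showed this (Atf3, Maff, Fosl1, Jun and Batf3), and in MCAO versus sham 5 (Atf3, Maff, Fosl1, Fos and Jun).

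Junb and Jund, which are known to moderate Jun activity, did not pass against sham. Junb stood at -0.23, -2.25 and -1.92 in VEGF, at -1.01, -1.50 and -1.82 in MCAO and at -1.45, -2.20 and -1.32 in sham. Its difference was 0.19 ± 0.52 in VEGF versus sham (95% interval -0.99 to 1.37) and 0.22 ± 0.52 in MCAO versus sham (-0.97 to 1.40). Jund stood at 5.42, 4.68 and 5.01 in VEGF, at 5.35, 4.88 and 4.62 in MCAO and at 5.25, 4.72 and 4.76 in sham. Its intervals were among the narrowest of the members, -0.52 to 0.77 in VEGF versus sham and -0.60 to 0.69 in MCAO versus sham.

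Batf3, the partner of Jun proteins in dendritic cells, did not pass either. It stood at -0.79, -1.16 and -1.14 in VEGF, at -1.59, -0.67 and -0.86 in MCAO and at -1.59, -1.56 and -2.14 in sham. MCAO array 1 lay at the level of the sham arrays for this gene, whereas VEGF array 1 was the highest of its group. The difference was 0.74 ± 0.29 in VEGF versus sham (limma adjusted p = 0.181) and 0.73 ± 0.29 in MCAO versus sham (limma adjusted p = 0.202). All VEGF arrays lay above all sham arrays.

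**Figure D2:**
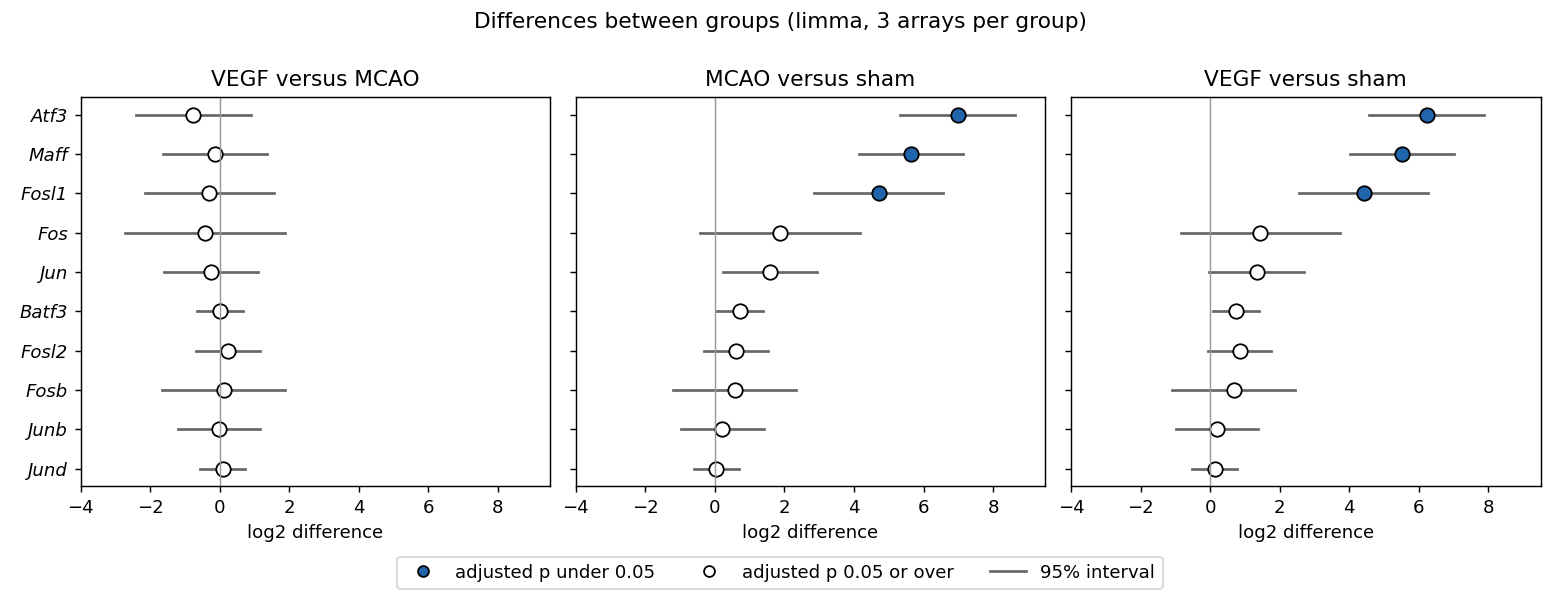
Log2 differences of the 10 members in the 3 comparisons with 95% intervals (limma, 3 arrays per group, filled points passed at adjusted p under 0.05). Filled points are Atf3, Maff and Fosl1 against sham, and no member is filled in VEGF versus MCAO.

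VEGF against MCAO asks what the injected growth factor changed in the ischaemic brain. No member differed between VEGF and MCAO brains beyond the spread between arrays: 0 of 10 were called (limma), against 0.00649% of all items, and 0 of 10 had an unadjusted p under 0.05, against 2.78% of all items. The groups overlapped for all 10 members, and did not overlap for 5.8% of all items. The median difference of the members was -0.08, and that of all items -0.02. Atf3 had the lowest value, -0.76 ± 0.73 (95% interval -2.42 to 0.90), and Fosl2 the highest, 0.25 ± 0.40 (-0.67 to 1.16). The intervals ran from -2.71 to 1.88 for Fos, from -1.66 to 1.88 for Fosb, from -2.16 to 1.57 for Fosl1, from -1.62 to 1.37 for Maff and from -1.60 to 1.11 for Jun. They ran from -1.21 to 1.16 for Junb, from -0.65 to 0.67 for Batf3 and from -0.56 to 0.73 for Jund. Values above 2-fold in either direction thus lay within the interval for Fos, Fosb, Fosl1, Maff, Jun and Junb, in the lower direction for Atf3 and in the upper for Fosl2, and outside it for Batf3 and Jund.

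The arrays of each ischaemic group were spread widely, with array 1 at the top for most members on the scaled levels. VEGF array 1 was the highest of the 9 arrays for 9 of 10 members, all but Batf3, against 20.8% of all items. VEGF array 1 and MCAO array 1 were both above the other 7 arrays for the same 9 members, against 25.5% of all items. Over all non-control spots, the 75th percentile of processed signal was 848 on VEGF array 1 and 923 on MCAO array 1, against 1420 to 2070 on the other 7. The percentile that scaled each array was taken over probes, after their spots were averaged, and has other values. On VEGF array 1, 73.0% of spots were well above background, against 78.7% to 81.8% on the other 8. In unscaled signal, VEGF array 1 was the highest for 5 members (Fos, Fosb, Fosl1, Jun and Maff), against 3.95% of all items, and both arrays were above the other 7 for 2 (Fosb and Fosl1), against 1.81%. Under quantile normalization both counts were 8, without Jund, against 20.5% and 22.1% of all items. The place of VEGF array 1 as the highest thus changed with the scaling for Atf3, Fosl2, Junb and Jund. That of both arrays above the other 7 changed for these and also for Fos, Jun and Maff. Between arrays of the same number, all 10 members were higher in VEGF array 1 than in MCAO array 1, by 0.07 (Jund, which was lower under quantile normalization) to 1.19 (Fos). All 10 were lower in VEGF array 2 than in MCAO array 2, from -1.65 (Fos) to -0.20 (Jund). In array 3, 7 were lower and Fosl2, Fosb and Jund were higher. Of all items, 43.9% were higher in VEGF array 1, 48% were lower in VEGF array 2 and 45.6% were lower in VEGF array 3. In unscaled signal the member counts in these directions were 9, 10 and 7, against 32.7%, 74.4% and 89.8% of all items. The pairing of arrays by number was inferred from these data and is not clear for array 2.

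**Figure D3:**
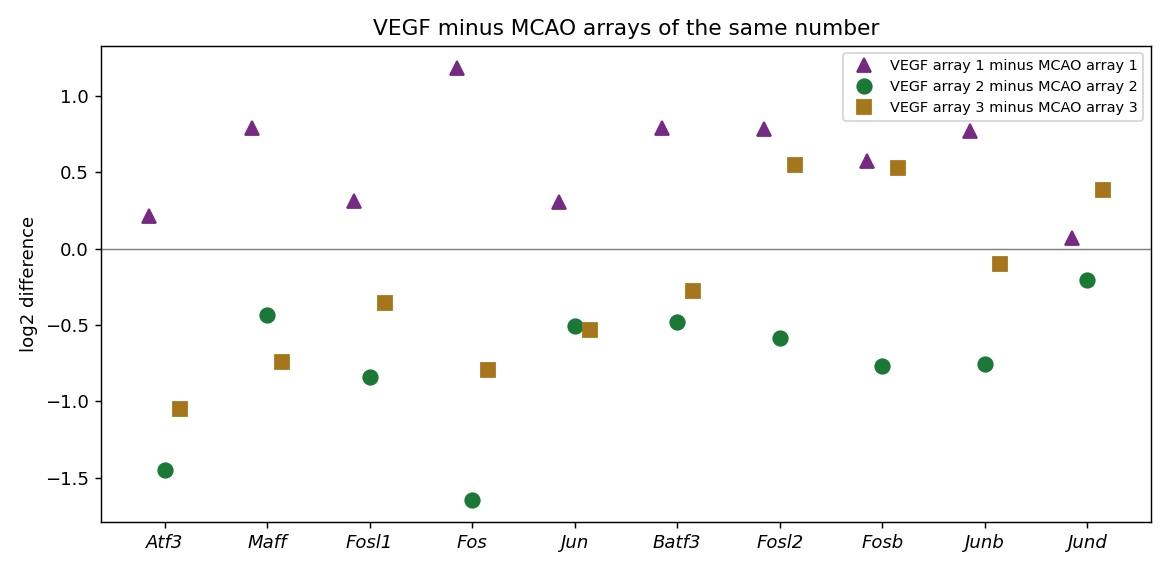
VEGF minus MCAO log2 difference between arrays of the same number for each member. The triangles of array 1 all lie above 0 and the circles of array 2 all below it, with Fos at 1.19 and -1.65. The pairing by number was inferred from these data and is not clear for array 2.

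Without VEGF array 1 and MCAO array 1, 7 members (Atf3, Fos, Maff, Fosl1, Jun, Junb and Batf3) had both remaining VEGF arrays below both remaining MCAO arrays, against 17.7% of all items. Under quantile normalization there were 6, without Junb, against 15.3%, and in unscaled signal 7, against 51.8%. None of the 10 was called in this fit (limma), against 0.00973% of all items. Atf3 was at -1.25 ± 0.28 (limma adjusted p = 0.452) and Fos at -1.22 ± 0.49 (limma adjusted p = 0.665), with 2 arrays in each ischaemic group. These 2 members had an unadjusted p under 0.05, against 7.4% of all items. In MCAO versus sham without the pair, 5 members were called higher, against 9.79% of all items: Atf3, Maff and Fosl1 again, Jun at 1.16 ± 0.20 (limma adjusted p = 0.0128) and Batf3 at 1.00 ± 0.20 (limma adjusted p = 0.0195). Jun was also called with VEGF array 1 alone left out (limma adjusted p = 0.0413), a fit that called 8.38% of all items. In VEGF versus sham without the pair, Atf3, Maff and Fosl1 were called, against 8.76% of all items called higher, and Fos was at 0.17 ± 0.44.

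Summed levels of neuron, endothelial, microglia, monocyte and macrophage, neutrophil, pericyte and red blood cell markers had array 1 at the same end of both ischaemic groups, whereas those of astrocyte, oligodendrocyte and choroid plexus markers did not. A sum follows the brightest markers of its list. By the median difference from the sham mean, microglia array 1 was the highest of VEGF (0.70) but the lowest of MCAO (-0.13). The summed level of 10 neuron markers, in multiples of the array's 75th percentile, was 134 to 489 in VEGF, 138 to 453 in MCAO and 571 to 584 in sham, with the lowest value of VEGF and of MCAO on array 1. Of these 10 neuron markers, 0 were called in either comparison with sham (limma). The sum of 10 endothelial markers was 37.2 to 143 in VEGF, 36.6 to 92.3 in MCAO and 28.3 to 29.0 in sham, with the highest on array 1. Of these 10, 0 were called higher and 1, Slco1a4, lower in each comparison with sham. Slco1a4 was at -2.23 ± 0.25 in VEGF and -1.59 ± 0.25 in MCAO versus sham (log2). Of all items, 2.43% were called in either direction in VEGF versus sham and 2.81% in MCAO versus sham. The sum of 6 measured monocyte and macrophage markers of 8 listed was 11.7 to 53.0 in VEGF, 14.6 to 43.9 in MCAO and 0.713 to 0.844 in sham, and Msr1 was near background on all 3 sham arrays. That of 9 neutrophil markers was 101 to 224 in VEGF, 108 to 246 in MCAO and 82.4 to 105 in sham, and Cxcr2 was near background on all 3 sham arrays. Most of the sham sum was Csf3r, whose mean log2 level was 6.32 in VEGF, 6.68 in MCAO and 6.49 in sham. Of the 9, 4 (S100a8, S100a9, Retnlg and Cxcr2) were called higher and 0 lower in each comparison with sham. Of all items, 2.07% were called higher in VEGF versus sham and 2.28% in MCAO versus sham. Microglia (8 markers) summed to 129 to 275 in VEGF, 150 to 164 in MCAO and 85.2 to 87.7 in sham. The brightest was Siglech, whose mean log2 level was 7.04 in VEGF, 6.94 in MCAO and 5.95 in sham. Of these 8, 0 were called higher and 1, P2ry12, lower in each comparison with sham (limma). P2ry12 was at -2.31 ± 0.20 in VEGF and -2.67 ± 0.20 in MCAO versus sham (log2), where the medians of the 8 were 0.52 and 0.37. Astrocytes (8) summed to 291 to 517 in VEGF, 288 to 297 in MCAO and 260 to 275 in sham. Oligodendrocyte markers (8) summed to 250 to 339 in VEGF, 260 to 706 in MCAO and 93.7 to 365 in sham, and pericyte and smooth muscle markers (8) to 13.1 to 26.2, 11.5 to 15.6 and 10.1 to 12.9 in that order. Choroid plexus and meninges markers (8) summed to 20.4 to 183 in VEGF, 72.9 to 314 in MCAO and 48.5 to 134 in sham, and 4 measured red blood cell markers of 5 listed to 91.3 to 166, 112 to 149 and 40.9 to 83.5. Their part in the results on Atf3, Maff and Fosl1, and in the split within the groups, was not tested.

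Related genes were described by lists. Of 23 measured other basic leucine zipper factors of 24 listed, 2 were called higher and 0 lower in VEGF versus sham and 3 higher and 0 lower in MCAO versus sham, with a median of 0.88 and 0.95. Of all items, 2.43% and 2.81% were called in these comparisons. Cebpd, an acute-phase factor, was 4.12 ± 0.47 higher in VEGF and 4.03 ± 0.47 higher in MCAO (log2, limma adjusted p = 0.00421 and 0.00442). Batf, a Jun partner in lymphocytes and myeloid cells, was 3.61 ± 0.56 and 3.71 ± 0.56 higher (limma adjusted p = 0.0159 and 0.0135). Atf5, a stress factor of the ATF family, was called in MCAO versus sham, at 1.82 ± 0.35 (limma adjusted p = 0.0315) and was at 1.53 ± 0.35 in VEGF versus sham (limma adjusted p = 0.0634). Cebpb was at 2.45 ± 0.54 and 2.47 ± 0.54 and passed in neither (limma adjusted p = 0.0601 and 0.0540). Without the array pair the list had 11 higher and 1 lower in VEGF versus sham and 14 higher and 1 lower in MCAO versus sham, where 20% and 22.8% of all items were called.

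Of 29 genes described as AP-1 or Atf3 targets, 17 were higher in VEGF versus sham and 16 in MCAO versus sham, none lower, with a median of 2.64 and 2.85. Of all items, 2.07% and 2.28% were called higher in these comparisons. Timp1, an inhibitor of matrix metalloproteinases, was 7.14 ± 0.46 higher in VEGF and 6.70 ± 0.46 higher in MCAO (log2, limma adjusted p = 0.000399 and 0.000503). Ccl2, a monocyte attractant, was 8.72 ± 0.63 and 8.49 ± 0.63 higher (limma adjusted p = 0.000537 and 0.000610). Mmp3, a matrix metalloproteinase, was not well above background in sham. Its sham values were set to no less than the lowest level of any probe well above background on the same array. On that basis it was 1219-fold higher in VEGF and 2052-fold higher in MCAO. These folds are not lower limits, since Lif, at a higher sham mean of -6.71, was well above background on only 1 sham array. The fit, without this floor, gave limma adjusted p = 0.00238 and 0.00160 for Mmp3. Tnf, an inflammatory cytokine, was 4.23 ± 0.47 and 4.79 ± 0.47 higher (limma adjusted p = 0.00405 and 0.00215). Without the pair, 21 and 22 of the 29 were called higher, where 8.76% and 9.79% of all items were called higher. The list was assembled with earlier results of these data known.

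Of 17 other immediate early genes, 0 were higher and 2 lower in VEGF versus sham and 1 higher and 2 lower in MCAO versus sham, with a median of 0.01 and -0.18. The share of all items called in either direction was 2.43% and 2.81%. Egr4 fell, at -2.46 ± 0.35 in VEGF and -2.65 ± 0.35 in MCAO versus sham (limma adjusted p = 0.0115 and 0.00807), and so did Nr4a2, an orphan nuclear receptor, at -2.57 ± 0.52 and -2.44 ± 0.52 (limma adjusted p = 0.0450 and 0.0498). Ier3 was called in MCAO versus sham at 3.23 ± 0.64 (limma adjusted p = 0.0376) and was at 2.85 ± 0.64 in VEGF (limma adjusted p = 0.0634). Ier2 was at 1.77 ± 0.74 in MCAO versus sham and did not pass. Without the pair the list had 2 higher and 4 lower in VEGF versus sham and 3 higher and 3 lower in MCAO versus sham. That fit called 20% and 22.8% of all items.

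None of the 22 kinases and factors upstream of AP-1 was called against sham (limma), while 8 had an unadjusted p under 0.05 in each comparison, against 23.5% and 21.4% of all items in VEGF and MCAO versus sham. The medians were -0.51 in VEGF and -0.53 in MCAO. Map3k5, the stress kinase Ask1, was at -1.03 ± 0.30 and -1.28 ± 0.30, Map3k14 at 1.30 ± 0.31 and 1.35 ± 0.31, and Map2k1 at -1.21 ± 0.39 in MCAO versus sham. Without the pair 2 were higher and 2 lower in VEGF versus sham, and 2 higher and 5 lower in MCAO versus sham. That fit called 20% and 22.8% of all items. In VEGF versus MCAO 0 genes of the 4 lists were called (limma), and 1 gene, among the 29 described targets, had an unadjusted p under 0.05. Of all items, 0.00649% were called and 2.78% had an unadjusted p under 0.05.

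**Figure D4:**
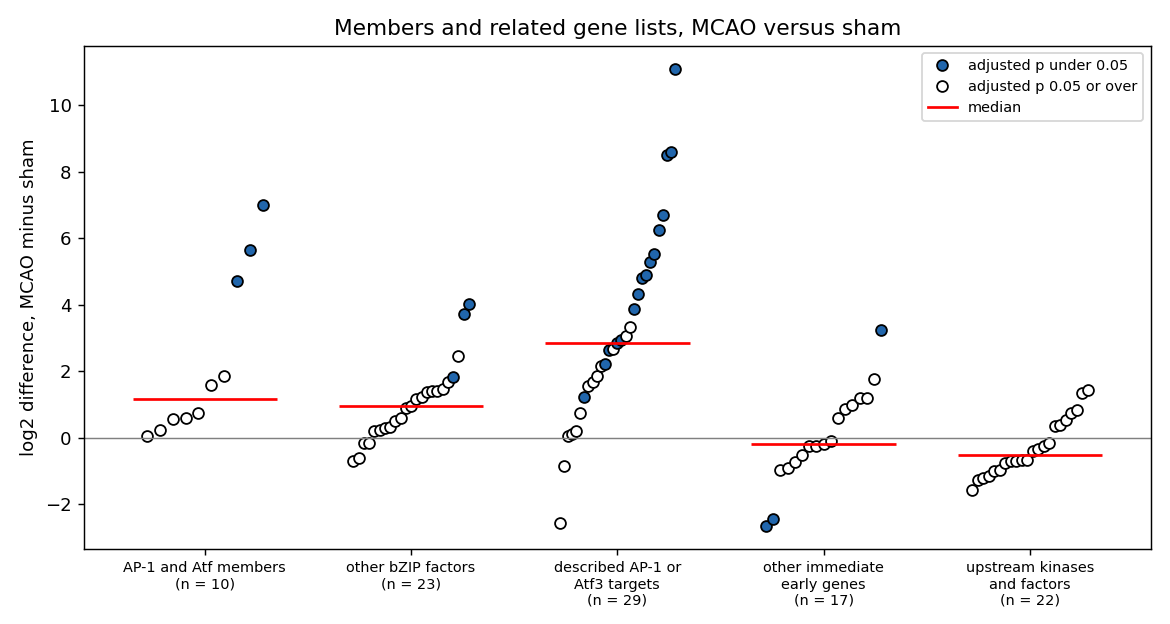
Log2 difference of MCAO versus sham for the 10 members and 4 related lists, ordered within each list, with a line at the median and filled points at adjusted p under 0.05. The described targets have a median of 2.85 and the upstream kinases and factors -0.53. The top point, Mmp3, is a fitted value for a gene not above background in sham.

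The genes nearest in profile were found as those with the smallest root mean square difference from the member over the 9 arrays, each centred on its sham mean. Nearest to Atf3 were Lgals3 (0.379), Lilr4b (0.489) and C5ar1 (0.497 log2 units). Nearest to Maff were Plaur (0.320), Ctla2a (0.342) and Ctla2b (0.417). Nearest to Fosl1 were 5730416F02Rik (0.276), Adam8 (0.307) and Flnc (0.330), and nearest to Jun were Trim25 (0.153), Sema3g (0.157) and Dap (0.161). These distances describe 9 arrays of 3 groups, and members with a small range, such as Jun, have smaller distances.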

How the data were processed

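RNA of 9 mouse brains was hybridised to 1-colour Agilent arrays. The deposited scanner files give processed intensity values that Feature Extraction 10.7.1.1 made, per the file headers, by background subtraction and spatial detrending, not scaled between arrays. The files also give the authors' deposited trend factor of each spot, a ratio near 1, and the processed signal of MCAO array 1 equalled the background-subtracted signal for 90.3% of its spots. The authors deposited a table of values of unstated scale and method, read as log2 (r 0.998 to 1.00 with the log2 intensity, median 6.97 on each array).

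Log2 intensities of the spots of a probe were averaged, without spots flagged as outliers unless all were flagged. The array's 75th percentile over probes was then subtracted. A probe was kept if, in 1 group or more, each of the 3 arrays had it well above background (43921 of 55681). Symbols came from RefSeq accessions (GRCm38.p6). The brightest probe stood for a gene. The 30837 items were fitted in limma 3.58.1 (R 4.3.3) with all 9 arrays, no covariates, and Benjamini-Hochberg adjustment at 0.05. The number of arrays limits the precision. The fit was tested on simulated data.

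All members are named, with the 4 genes of smallest p in MCAO versus sham from each list and the 3 nearest in profile to the 4 members of smallest adjusted p. One gene that this rule names is not reported here. Members and lists were chosen with earlier results of these data known. Arrays of VEGF and MCAO with the same number deviated together (r = 0.587, 0.224 and 0.558), although VEGF array 3 with MCAO array 2 (r = 0.392) and VEGF array 2 with MCAO array 3 (r = 0.234) exceeded the value of the array 2 pair. Those of either with sham did not in every pair. The numbers were therefore taken to pair VEGF with MCAO, a pairing that rests on these correlations and is not clear for array 2. The deviations of the 3 arrays of a group sum to 0, so these correlations depend on each other. The mouse of array 2 was 50 days old in VEGF and 52 days old in MCAO, whereas ages matched for arrays 1 and 3.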

Additional observations from a re-analysis of the deposited data

How the results depend on the processing

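Over 24 alternative settings, Atf3 and Maff were called against sham under every one that applied, with Atf3 between 5.31 and 6.78 in VEGF and 6.18 and 7.39 in MCAO, and Maff between 4.58 and 5.95 in VEGF and 4.70 and 5.88 in MCAO (log2). Fosl1 lost its call in VEGF versus sham under normexp background correction (3.54, adjusted p = 0.0621), and in both comparisons without any 1 sham array or without MCAO array 2. The cause was not tested. Leaving out each array in turn gave 0 members called in VEGF versus MCAO, 2 to 3 in VEGF versus sham and 2 to 4 in MCAO versus sham, where 0.00324% to 0.00973%, 0.506% to 10.6% and 0.616% to 8.38% of all items were called. The replicate block left 0 members called in VEGF versus MCAO (Atf3 -0.76, SE 0.564), as did the block with only these 2 groups, chosen after seeing the data (SE 0.378), and it changed no other member call. A slide block could not be fitted against sham, since each slide held either sham or ischaemic arrays only.

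Array weights called 6 members (7 probes) lower in VEGF versus MCAO, 7 members (8 probes) higher in MCAO versus sham and 5 (5 probes) in VEGF versus sham, where 27.2%, 59.9% and 42.8% of all items were called. That fit stopped before convergence and gave MCAO array 2 a weight of 57.6 against 0.078 for MCAO array 1. It turned VEGF versus MCAO to -0.64 (Fosb), -0.53 (Fosl2), -0.16 (Jund) and -0.47 (Batf3, adjusted p = 0.0207), and VEGF versus sham to -0.38 (Fosb), -0.41 (Junb) and -0.080 (Jund). Without MCAO array 1 and VEGF array 1, 5 members (5 probes) were called in MCAO versus sham. VEGF versus MCAO then turned to -0.12 (Fosb), -0.02 (Fosl2) and -0.38 (Batf3), MCAO versus sham to -0.048 (Fosb), -0.000469 (Junb) and -0.16 (Jund), and VEGF versus sham to -0.17 (Fosb), -0.43 (Junb) and -0.066 (Jund). None of these was called in either fit except Batf3 under array weights.

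In VEGF versus MCAO, Junb was at 0.017 under normexp, 0.049 under quantile normalization and 0.0486 with the deposited table. Jund was at -0.0059 under quantile normalization, -0.0047 with the deposited table and -0.012 with age as a covariate, and Fosb at -0.13 with age. Jund was at -0.031 in MCAO versus sham under normexp. Without 1 array in turn, VEGF versus MCAO ran from -1.70 to 0.24 for Fos, -0.73 to 0.75 for Fosb, -1.24 to 0.35 for Fosl1, -0.17 to 0.52 for Fosl2, -0.94 to 0.21 for Jun, -0.64 to 0.36 for Junb, -0.11 to 0.28 for Jund, -0.26 to 0.19 for Batf3 and -0.94 to 0.30 for Maff. MCAO versus sham ran from -0.048 to 0.99 for Fosb, -0.054 to 0.41 for Junb and -0.16 to 0.21 for Jund, and VEGF versus sham from -0.17 to 1.31 for Fosb, -0.43 to 0.58 for Junb and -0.066 to 0.30 for Jund. The median of all items in VEGF versus sham was -0.12 here and 0.02 under normexp.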

Other observations

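Batf3 and Atf3 are near neighbours on chromosome 1 in the RefSeq table, with 4 genes between them, of which 1, Fam71a, is protein coding. Their differences differed in size: in MCAO versus sham Atf3 was at 6.98 ± 0.73 and Batf3 at 0.73 ± 0.29 on the log2 scale (limma, n = 3 arrays per group). On the scaled levels, Atf3 was at its group's highest on MCAO array 1 and Batf3 at its group's lowest. In processed signal, before scaling, Atf3 was 12900 on MCAO array 1 and 15700 on MCAO array 2.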
